A study of Homo sapiens with 6 samples.

Results

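Selenoproteins were examined in long-read cDNA counts from Calu-6, a cell line established from a lung carcinoma. The 9 genes described here were SELENOS, SELENOK, SELENOT, SELENOF, SELENOM, SELENOW, SELENOH, GPX1 and GPX4. They were found by gene name among the 10072 genes of the count table, and all 9 had counts, with 6036 counts in 40 transcript models. SELENOS was chosen by its count difference between the groups compared here, so that difference is described and no test of it is given. The other 8 are members of the same protein family, and the 9 genes were chosen with earlier results of these data known.

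The cells carried the genotype WT in the labels and were transfected for 48 h at 10 nM with either a non-silencing siRNA (siControl) or an siRNA against the junction of exon 1 and exon 5 of TERT Delta 2-4 (siDelta2-4). TERT encodes the reverse transcriptase of telomerase, and Delta 2-4 is its splice variant without exons 2 to 4. Each group had 3 libraries of poly(A) RNA, which are given below in the order of their total counts, from lowest to highest. The count columns carried the word Empty, which is the study's word for cells with an empty expression vector. Its methods describe siRNA treatment of Calu-6 lines stably carrying either an empty vector or one expressing Delta 2-4. By that description these were empty-vector cells, although the labels give WT and the counts cannot show which holds. The totals were 1037468 to 1106413 counts in siControl and 1070009 to 1309241 in siDelta2-4. No row of the table analysed here was TERT, so the effect of the siRNA on its target could not be checked with these counts. Of the markers of carcinoma cells, KRT18 held 1124 counts and KRT8 824, while EPCAM held 13, KRT19 1 and CDH1 had no row. Of the mesenchymal markers, VIM held 987 counts and FN1 2, while COL1A1 and COL1A2 had no rows. The markers of lung epithelium (NKX2-1, SFTPB and NAPSA) and of endothelium had no rows, and the leukocyte markers held 12 counts, all in CD68.

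Selenoproteins contain selenocysteine (Sec), the selenium analogue of cysteine, which is inserted at a UGA codon that would otherwise end translation. A hairpin in the 3′ untranslated region, the SECIS element, recruits SECISBP2 and the elongation factor EEFSEC so that the UGA is read as Sec. A UGA that is read as a stop ahead of the last exon junction can mark the mRNA for nonsense-mediated decay. Many selenoproteins are oxidoreductases, and several of them sit in the endoplasmic reticulum (ER), where they act in protein folding and in the removal of misfolded proteins.

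The Sec codon is shown for each gene because it defines the family and because its place differs among the members. Each sequence was read from the Gencode 44 coding sequence of the gene's most counted coding model on GRCh38, in the sense of the mRNA and written with T. Capitals mark the Sec codon TGA and, where the preceding bases hold one, the nearest cysteine codon before it. The windows show 12 bases before the Sec codon and up to 15 bases after it, or up to the stop codon.
SELENOS: tcatctggcggaTGAggctaa
SELENOK: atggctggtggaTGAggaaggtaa
SELENOT: attTGTgtttccTGAggttataggcgggtg
SELENOF: gaagttTGTggaTGAaaattgggaaggttc
SELENOM: accTGCgggggaTGAcagctgaaccgccta
SELENOW: tatTGTggcgctTGAggctacaagtccaag
SELENOH: catTGCactagcTGAcgcgtctatgggcgc
GPX1: gtggcgtccctcTGAggcaccacggtccgg
GPX4: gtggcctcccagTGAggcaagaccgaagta

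The windows fell into groups by what surrounded the Sec codon. A cysteine codon stood 3 codons before it in SELENOT, SELENOM, SELENOW and SELENOH, which have a fold like that of thioredoxin, and 2 codons before it in SELENOF. No cysteine codon stood within the 12 bases before it in SELENOS, SELENOK, GPX1 or GPX4. In SELENOS the Sec codon was codon 188 of 189 and in SELENOK codon 92 of 94, so that the stop codon closes both windows. In the other 7 genes 69 to 154 codons followed it.

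The place of the Sec codon relative to the last exon junction differed in the same way. It lay in the last exon in SELENOS, ending 80 bases after the junction, and it ended 5 bases before the junction in SELENOK. In the other 7 genes it lay further ahead of the junction, from 78 bases in SELENOF to 470 bases in SELENOT. SELENOT also had the longest 3′ untranslated region, of 2807 bases, compared with 193 bases in SELENOM.

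**Figure D1:**
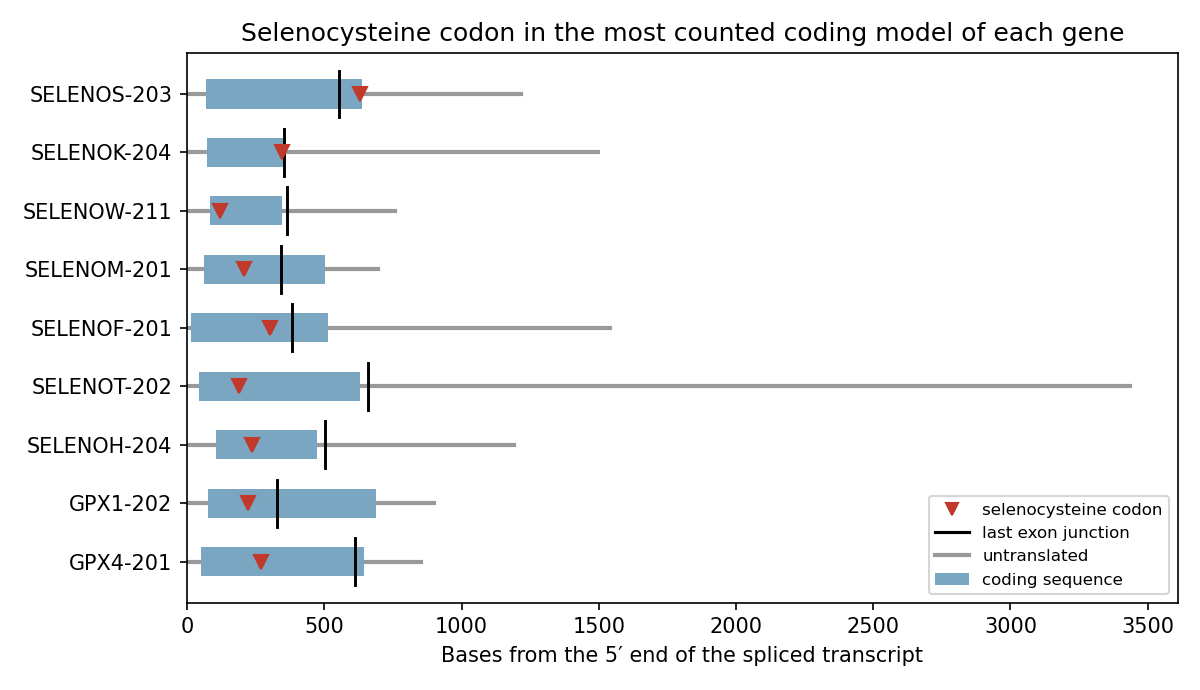
Most counted coding model of each selenoprotein gene, drawn to scale in bases from the 5′ end of the spliced transcript. Boxes are coding sequence, grey lines are untranslated regions, triangles are Sec codons and black bars are last exon junctions. The triangle lies after the bar in SELENOS alone among the 9 models.

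SELENOS (ENSG00000131871.15, chr15:101270817-101277500, minus strand) encodes an ER membrane protein that binds the ATPase VCP and derlins in the degradation of misfolded ER proteins. Its Sec codon lies at chr15:101272777-101272779. SELENOS had 13, 8 and 11 counts in the siControl libraries and 31, 33 and 45 in the siDelta2-4 libraries. All 3 siDelta2-4 libraries were above all 3 siControl libraries, in counts and in CPM (counts scaled to TMM-adjusted library totals), as in 14.1% of all genes tested. Its mean was 10.3 ± 2.42 CPM (SD, n = 3) in siControl and 30.1 ± 3.97 CPM in siDelta2-4. The log2 fold change was 1.55 ± 0.28 (SE), a ratio of 2.92, at percentile 99.9 of the log2 fold changes of the 3888 genes tested, of which the 5th and 95th percentiles were -0.53 and 0.71. The difference rested on few reads. The summed counts were 32 in siControl, with an exact 95% Poisson interval of 21.9 to 45.2, and 109 in siDelta2-4, with an interval of 89.5 to 131, and these intervals cover counting error only. Under 17 alternatives the log2 fold change ranged from 1.37, without the middle-total siControl library, to 1.68, without the lowest-total siControl library.

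Nearly all SELENOS counts lay on a single transcript model. SELENOS-203, of 6 exons and 1218 bases, held 13, 8 and 11 counts with siControl and 29, 32 and 45 with siDelta2-4. The other model, SELENOS-201, of 7 exons, held 0, 0 and 0 counts with siControl and 2, 1 and 0 with siDelta2-4. Both encode Sec. Its nearest neighbour was SNRPA1, 4009 bases away on the same strand, which encodes a protein of the U2 snRNP. SNRPA1 had 48, 42 and 48 counts with siControl and 50, 50 and 42 with siDelta2-4, and its log2 fold change of -0.16 ± 0.19 did not pass the test (edgeR, adjusted p = 0.657).

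None of the other 8 selenoprotein genes was called. At an adjusted p under 0.1, edgeR called 0 of the 8, where it called 13% of all 3888 genes tested (504), 7% as higher (272) and 5.97% as lower (232) in siDelta2-4. With library totals in place of TMM this split was 361 higher and 152 lower. At an unadjusted p under 0.05, 2 of the 8 passed (SELENOW and SELENOT), compared with 900 of all genes, and DESeq2 called 0 of the 7 to which it gave an adjusted p. All 8 passed the filter on low counts, although SELENOM, like SELENOS, reached its level in every siDelta2-4 library and not in every siControl library. Of the 8 estimates, 4 were above and 4 below 0, and their median log2 fold change was -0.0046, where that of all genes tested was 0.027. The summed level of the 8 genes was 860 ± 14.7 CPM (SD, n = 3) in siControl and 895 ± 30.3 CPM in siDelta2-4.

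**Figure D2:**
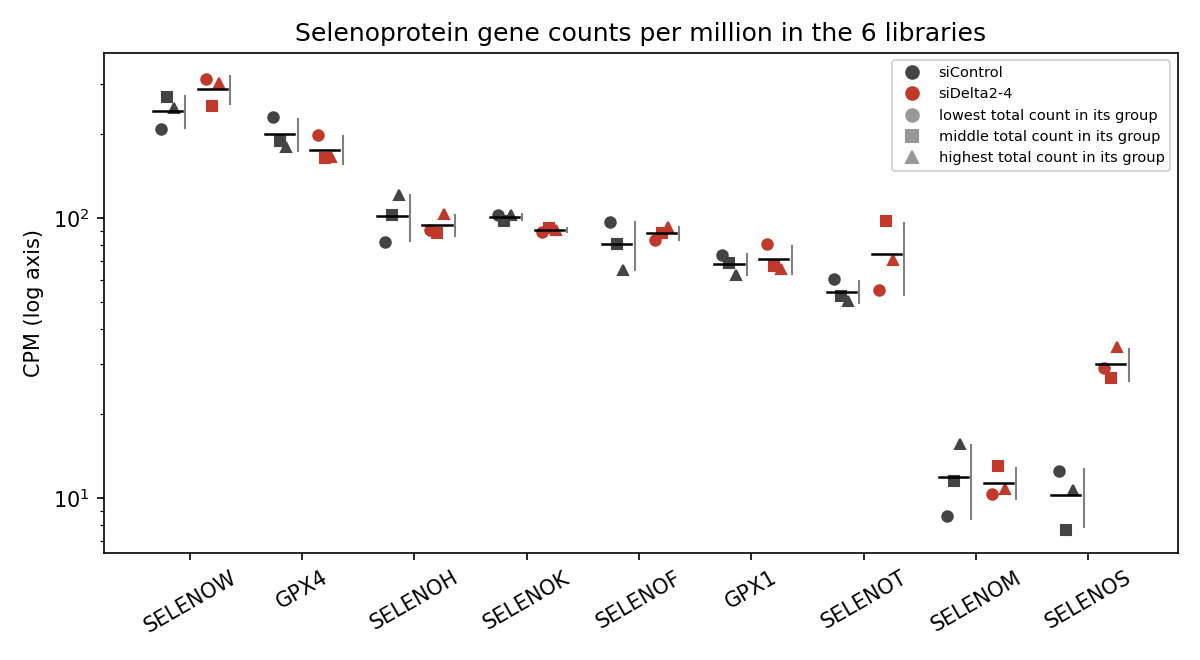
CPM of the 9 selenoprotein genes in each of the 6 libraries, on a log axis. Points are libraries, shaped by the rank of their total count in the group, horizontal bars are group means and vertical lines are ± SD (n = 3). SELENOS lies at 10.3 CPM on average in siControl and 30.1 CPM in siDelta2-4 with no overlap, and the CPM of the groups overlaps in 7 of the other 8 genes.

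Like SELENOS, SELENOK is an ER membrane protein that binds derlins, and it also serves as the partner of the palmitoyl transferase ZDHHC6. SELENOK (ENSG00000113811.12, chr3:53884417-53891885, minus strand; Sec codon chr3:53885831-53885833) had 107, 102 and 105 counts with siControl and 95, 113 and 118 with siDelta2-4. The raw counts overlapped. The CPM did not, at 97.8 to 102.5 in siControl and 89.0 to 91.8 in siDelta2-4, as in 26% of all genes tested. The log2 fold change was -0.16 ± 0.13, with a 95% interval of -0.42 to 0.11, and did not pass the test (edgeR, adjusted p = 0.497). SELENOS and SELENOK thus had estimates of opposite sign.

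SELENOT is a thioredoxin-like oxidoreductase of the ER membrane. SELENOT (ENSG00000198843.14, chr3:150602875-150630436, plus strand; Sec codon chr3:150622392-150622394) had 63, 55 and 52 counts with siControl and 59, 120 and 92 with siDelta2-4. The siDelta2-4 libraries with the middle and highest totals were above siControl, and the library with the lowest total lay among the siControl values. Its mean was 54.6 ± 5.08 CPM in siControl and 74.4 ± 21.4 CPM in siDelta2-4. The log2 fold change was 0.46 ± 0.18, with a 95% interval of 0.079 to 0.83 (edgeR, unadjusted p = 0.0195, adjusted p = 0.126). The value moved with the library left out. It was 0.21 (edgeR, adjusted p = 0.626) without the middle-total siDelta2-4 library, 0.51 (adjusted p = 0.0397) without the lowest-total siControl library and 0.61 (adjusted p = 0.0594) without the lowest-total siDelta2-4 library.

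The start of SELENOT is shared with another gene on the opposite strand. SERP1, which encodes a small stress-associated protein of the ER membrane, overlaps the first 354 bases of SELENOT. SERP1 rose from 63, 34 and 33 counts with siControl to 73, 99 and 89 with siDelta2-4, with a log2 fold change of 0.79 ± 0.20 (edgeR, adjusted p = 0.0130). Without the middle-total siDelta2-4 library, in which SELENOT was highest, the change in SERP1 was 0.71 (adjusted p = 0.111). Whether reads of the overlap were exchanged between the genes was not tested.

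SELENOF and SELENOM are soluble proteins of the ER lumen with thioredoxin-like folds, and SELENOF binds the folding sensor UGGT. SELENOF (ENSG00000183291.18, chr1:86862445-86914424, minus strand; Sec codon chr1:86880690-86880692) had 101, 84 and 67 counts with siControl and 89, 109 and 121 with siDelta2-4. The groups overlapped in counts and in CPM. The log2 fold change was 0.13 ± 0.15, with a 95% interval of -0.18 to 0.44 (edgeR, adjusted p = 0.659). SELENOM (ENSG00000198832.11, chr22:31104772-31120069, minus strand; Sec codon chr22:31105951-31105953) had 9, 12 and 16 counts with siControl and 11, 16 and 14 with siDelta2-4. It was the other member with few reads, at a level close to that of SELENOS in siControl, and the groups overlapped. Its log2 fold change was -0.06 ± 0.33 (edgeR, adjusted p = 0.941), with a 95% interval from -0.74 to 0.62. As a ratio the interval runs from 0.597 to 1.53, and the counts do not tell apart the differences within it.

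SELENOW, a small cytosolic protein, and SELENOH, a nuclear protein, share the thioredoxin-like fold. SELENOW (ENSG00000178980.16, chr19:47778677-47784686, plus strand; Sec codon chr19:47780732-47780734) had 217, 282 and 254 counts with siControl and 334, 309 and 395 with siDelta2-4. The raw counts did not overlap, but the CPM did, at 208 to 270 in siControl and 251 to 313 in siDelta2-4. The log2 fold change was 0.25 ± 0.11, with a 95% interval of 0.023 to 0.49 (edgeR, unadjusted p = 0.0325, adjusted p = 0.166). The call depended on the scaling. SELENOW passed the test with library totals in place of TMM (edgeR, 0.32, adjusted p = 0.0616) and with the trend on transcript length removed (0.34, adjusted p = 0.0551). It did not pass with DESeq2 size factors (0.23, adjusted p = 0.232) or TMM without ribosomal and mitochondrial genes (0.24, adjusted p = 0.207), nor in DESeq2 (0.20, adjusted p = 0.380). Without the lowest-total siControl library, in which SELENOW was lowest, the value was 0.13 (edgeR, adjusted p = 0.404).

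SELENOH (ENSG00000211450.11, chr11:57741491-57743554, plus strand; Sec codon chr11:57741816-57741818) had 86, 107 and 124 counts with siControl and 97, 109 and 135 with siDelta2-4. The groups overlapped, and the log2 fold change of -0.11 ± 0.14 did not pass the test (edgeR, adjusted p = 0.703), with a 95% interval of -0.40 to 0.19. The annotation places 2 further protein-coding genes over SELENOH on the same strand, of which neither had a row.

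GPX1 and GPX4 are glutathione peroxidases. GPX1 reduces hydrogen peroxide, and GPX4 reduces lipid hydroperoxides in membranes and protects cells from ferroptosis. GPX1 (ENSG00000233276.9, chr3:49357174-49358605, minus strand; Sec codon chr3:49358132-49358134) had 77, 72 and 64 counts with siControl and 86, 83 and 86 with siDelta2-4. GPX4 (ENSG00000167468.20, chr19:1103982-1106791, plus strand; Sec codon chr19:1105403-1105405) had 239, 197 and 184 counts with siControl and 212, 201 and 215 with siDelta2-4. Both overlapped between groups in CPM, although the raw counts of GPX1 did not. The log2 fold change was 0.05 ± 0.16 for GPX1 (edgeR, adjusted p = 0.876), with a 95% interval of -0.26 to 0.37. For GPX4 it was -0.19 ± 0.12 (edgeR, adjusted p = 0.366), with a 95% interval of -0.43 to 0.06. A same-strand read-through gene, ENSG00000290318, covers GPX1 by 1430 bases and held 213 counts of its own, so reads of GPX1 could have been counted there.

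The precision of these comparisons followed the counts. The median SE of the log2 fold change was 0.29 over the 2040 tested genes with a mean of 10 to 50 counts, where SELENOS and SELENOM lay, and 0.12 over the 729 genes with a mean of 100 to 500 counts.

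**Figure D3:**
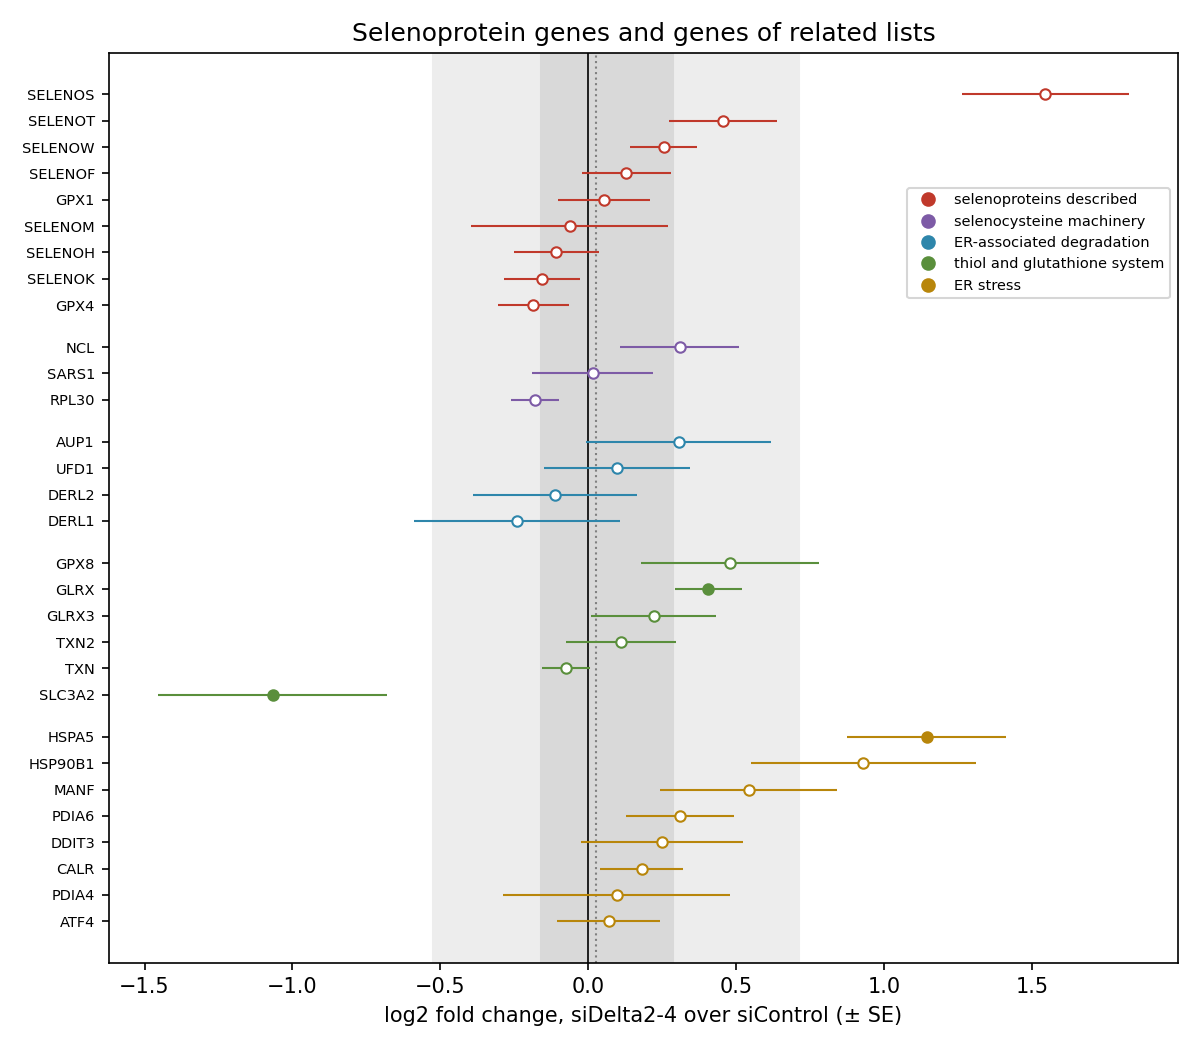
Log2 fold change (siDelta2-4 over siControl, ± SE) of the 9 selenoprotein genes and of the tested genes of 4 related lists. Filled points passed the edgeR test at an adjusted p under 0.1 and open points did not, apart from SELENOS, which is open because no test of it is given. Grey bands span the 5th to 95th and the 25th to 75th percentiles of all genes tested and the dotted line is their median. Among the selenoproteins SELENOS, at 1.55, is outside the wider band.

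The levels of the 9 genes in siControl spanned more than an order of magnitude. CPM is given first, since a long read covers a transcript as a unit, and CPM per kilobase of transcript second. The libraries were amplified by PCR, so a read is a copy and need not be a separate molecule. In CPM the order was SELENOW (242), GPX4 (199), SELENOH (102), SELENOK (100.9), SELENOF (80.9), GPX1 (68.4), SELENOT (54.6), SELENOM (11.9) and SELENOS (10.3). Neighbours whose siControl ranges overlapped were SELENOW and GPX4, SELENOH and SELENOK, SELENOF and GPX1, and SELENOM and SELENOS. Per kilobase, SELENOW (311) and GPX4 (239) remained the highest and SELENOS (8.41) the lowest, and SELENOT moved to 16.2, next to SELENOM at 17.3. In siDelta2-4 the mean level of SELENOS in CPM was above that of SELENOM, at 11.3 ± 1.45 CPM, and below that of GPX1, at 71.3 ± 8.01 CPM.

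Most counts of these genes lay on models whose annotated coding sequence includes the Sec codon. The share was 100% in SELENOS and 97.4% to 99.6% in SELENOM, SELENOF, SELENOT, SELENOH and GPX1. It was 93.3% in SELENOK, where the rest lay on SELENOK-203, a model annotated as a target of nonsense-mediated decay, with 6, 7 and 7 counts with siControl and 10, 7 and 6 with siDelta2-4. SELENOW had 89.2% on such models. GPX4 had 63.9%, and the other 36.1% lay on models outside the annotation, TALONT000298021 and TALONT000298019, whose coding content is not known.

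The choice among models was compared in the 3 genes with enough counts on at least 2 models. SELENOW, SELENOF and GPX4 did not pass the usage test (edgeR diffSpliceDGE, adjusted p = 0.871, 0.959 and 0.994), which called 0.618% of the 1132 genes tested. None of the 3 was at an unadjusted p under 0.05, compared with 109 of the 1132 genes. In SELENOF, SELENOF-202, the shorter coding model, held 13, 15 and 12 counts with siControl and 17, 15 and 16 with siDelta2-4, against 88, 69 and 54 and then 72, 94 and 104 for SELENOF-201. GPX4-201 held 143, 112 and 96 counts with siControl and 118, 104 and 121 with siDelta2-4, and TALONT000298021 held 49, 37 and 37 and then 33, 48 and 48. The shares of these models overlapped between the groups. Of the 13 models of the 8 genes that could be tested singly, edgeR called 0, where it called 6.91% of all models. The lowest p-values among the 13 were those of SELENOW-211 and SELENOT-202. SELENOW-211 had a log2 fold change of 0.29 ± 0.11 (edgeR, unadjusted p = 0.0177, adjusted p = 0.163). SELENOT-202 had one of 0.47 ± 0.19 (edgeR, unadjusted p = 0.0221, adjusted p = 0.184).

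**Figure D4:**
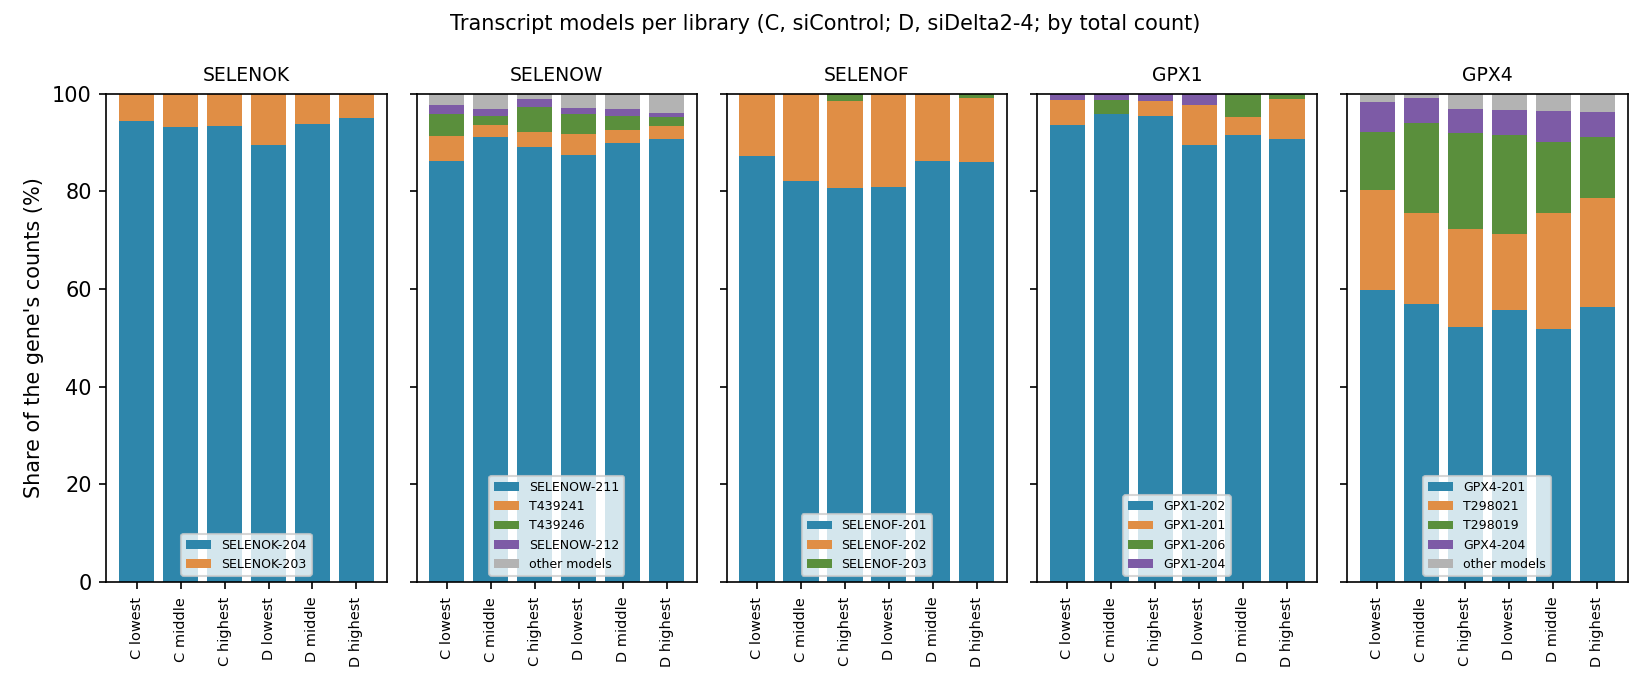
Share of each gene's counts (%) on its transcript models in each library, for 5 selenoprotein genes with several counted models. C and D are siControl and siDelta2-4, ordered by total count, and T numbers are models outside the annotation. In GPX4 the model GPX4-201 holds the largest share in each of the 6 libraries, with 63.9% of all GPX4 counts on Sec-encoding models as a whole.

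The remaining human selenoproteins were at the edge of detection. Of 16 other selenoprotein genes, 5 had counts, 80 in all, and none could be tested. MSRB1, a methionine sulfoxide reductase, held 14, 11 and 8 counts with siControl and 5, 6 and 9 with siDelta2-4, in the opposite order to SELENOS. Its raw counts overlapped at 8 and 9, and its CPM did not, at 7.80 to 13.4 in siControl and 4.68 to 6.91 in siDelta2-4. The groups did not overlap in CPM in 26% of all genes tested. SEPHS2, which makes the selenium donor for Sec and is itself a selenoprotein, held 1, 2 and 0 counts with siControl and 4, 3 and 3 with siDelta2-4. The thioredoxin reductase TXNRD2 held 5 counts in all, and TXNRD1, TXNRD3 and the deiodinases had no rows.

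Of 15 genes that insert Sec or regulate its insertion, 9 had counts and 3 were tested. At an adjusted p under 0.1, edgeR called 0 of the 3, where it called 13% of all genes tested. At an unadjusted p under 0.05, 1 of the 3 passed, beside 900 of the 3888 genes tested. The median log2 fold change of the 3 genes was 0.014. RPL30, a ribosomal protein that binds the SECIS element, held 5732, 6522 and 6748 counts with siControl and 6045, 6214 and 7125 with siDelta2-4, with a log2 fold change of -0.18 ± 0.08 (edgeR, adjusted p = 0.166). RPL30 passed the test with DESeq2 (-0.23, adjusted p = 0.0715), with known models alone (edgeR, -0.21, adjusted p = 0.0622) and without the lowest-total siControl library (-0.27, adjusted p = 0.00129). With the length trend removed its value was -0.065 (edgeR, adjusted p = 0.470). NCL, nucleolin, which also binds SECIS elements, had a log2 fold change of 0.31 ± 0.20 (edgeR, adjusted p = 0.376). SECISBP2 and EEFSEC had no rows.

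SELENOS and SELENOK serve ER-associated degradation, which exports misfolded proteins from the ER to the proteasome. Of 27 genes of this process, 17 had counts and 4 were tested. At an adjusted p under 0.1, edgeR called 0 of the 4, where it called 13% of all genes tested. At an unadjusted p under 0.05, 0 of the 4 passed, beside 900 of the 3888 genes tested. DESeq2 gave an adjusted p to none of the 4. The median log2 fold change was -0.0081, between -0.24 ± 0.35 for the derlin DERL1 and 0.31 ± 0.31 for AUP1, which recruits a ubiquitin-conjugating enzyme to the ER. AUP1 moved with the library left out, from 0.029 without the middle-total to 0.69 without the lowest-total siControl library. VCP, the ATPase that SELENOS binds, had no row.

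The ER stress genes listed here are targets and transcription factors of the unfolded protein response. Of 16 genes, 15 had counts and 8 were tested, of which 1 was called higher and 0 lower, where 7% of all genes tested were called higher. The estimates of all 8 tested genes were above 0, as were 2094 of the 3888 over all genes. Genes with too few counts to be tested lay on both sides. DNAJB9 held 2, 2 and 2 counts with siControl and 1, 1 and 0 with siDelta2-4, and PDIA3 7, 9 and 6 and then 5, 8 and 6. XBP1 held 1, 5 and 8 and then 10, 9 and 12. The median log2 fold change of the 8 tested genes was 0.28. It was 0.027 for all genes and 0.070 for the 2842 genes in the range of mean counts of the 9 selenoproteins. The sign count and the median include HSP90B1, whose entry to the test is described below, so neither is a test of the list. HSPA5 (BiP), the main chaperone of the ER lumen, rose from 20, 10 and 14 counts with siControl to 31, 44 and 38 with siDelta2-4, or from 14.1 ± 4.80 to 31.3 ± 3.84 CPM (SD, n = 3). Its log2 fold change was 1.14 ± 0.27 (edgeR, adjusted p = 0.00800), and DESeq2 gave it no adjusted p. All siDelta2-4 libraries of HSPA5 were above the siControl libraries in CPM, as for SELENOS and as in 14.1% of all genes tested. HSP90B1, another ER chaperone, held 23, 5 and 5 counts with siControl and 23, 25 and 25 with siDelta2-4. Its log2 fold change was 0.93 ± 0.38. It reached the level of the low-count filter in every library of siDelta2-4, the group in which it was higher, and not in every siControl library. Its test is therefore not quoted. The siControl library with the lowest total decided its value, which was 2.02 without that library. CALR, the most counted gene of the list, had a log2 fold change of 0.18 ± 0.14 (edgeR, adjusted p = 0.469). ATF4, with 543 counts, had one of 0.07 ± 0.17 (edgeR, adjusted p = 0.857). HSP90B1 was named after its values were seen.

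GPX1 and GPX4 draw on glutathione, and thioredoxins and glutaredoxins share the thiol chemistry of the small selenoproteins. Of 16 genes of this system, 11 had counts and 6 were tested, of which 1 was called higher and 1 lower, where 7% of all genes tested were called higher and 5.97% lower. The median log2 fold change of the 6 genes was 0.17, beside 0.027 for all genes tested. The lower call and the median include SLC3A2, whose entry to the test is described below. GLRX, a cytosolic glutaredoxin, rose from 167, 139 and 165 counts with siControl to 212, 260 and 250 with siDelta2-4, with a log2 fold change of 0.41 ± 0.11 (edgeR, adjusted p = 0.0264). GLRX lost the call without the middle-total siControl library (0.32, adjusted p = 0.191) or without the middle-total siDelta2-4 library (0.37, adjusted p = 0.131). The lower gene was SLC3A2, the heavy chain of the cystine importer that feeds glutathione synthesis, with 10, 12 and 11 counts with siControl and 7, 6 and 5 with siDelta2-4. It entered the test only through siControl, the group in which it was higher, so its call is given as a count and its test is not quoted. With a filter on the mean over all libraries, of at least 10 counts, SLC3A2 was not tested. MSRB3, a methionine sulfoxide reductase without Sec, held 0, 0 and 0 counts with siControl and 3, 4 and 3 with siDelta2-4, in a table in which every model had a siDelta2-4 count.

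The genes whose pattern over the 6 libraries was most like that of SELENOS were found by Pearson's r of log2 CPM, given without a test since the groups shape it. They were TALONG000065450 (r = 0.999), CISD2 (0.991), TALONG000080492 (0.988), ATP6V1G1 (0.986) and DPH3 (0.986). TALONG000065450, a gene outside the annotation, had 7, 5 and 6 counts with siControl and 13, 14 and 17 with siDelta2-4. It reached the level of the low-count filter in the siDelta2-4 libraries alone, the group in which it was higher. CISD2 had 43, 38 and 41 counts with siControl and 61, 65 and 73 with siDelta2-4. Among the selenoproteins, r with SELENOS was highest for SELENOT (0.61) and SELENOW (0.55) and lowest for SELENOK (-0.86), whose CPM was lower in all siDelta2-4 libraries.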

How the data were processed

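PCR-cDNA libraries of 6 Calu-6 samples were sequenced on a Nanopore MinION by the authors. The deposited values were raw counts of reads per transcript model, not normalised, which the authors made with minimap2 2.14, SAMtools 1.13, TranscriptClean and TALON on GRCh38.p14. Model lengths, in bases, were deposited beside them. All 6398 unannotated models reached 5 counts in each siDelta2-4 library, while 5173 of them did so in each siControl library, and every model had a count in siDelta2-4.

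The siRNA named in a column gave its group, and all 6 count columns were used. Labels do not name separate cultures, so p-values measure the spread between these libraries. Counts were summed per gene and tested in R 4.3.3 with edgeR 4.0.16 (TMM after filterByExpr, quasi-likelihood test, two-sided, Benjamini-Hochberg over all genes tested, called at an adjusted p under 0.1). SEs were taken from the log2 fold change and its F statistic. Models were tested likewise, and usage with diffSpliceDGE. All 8168 annotated genes matched Gencode 44 by identifier. No pseudogene named after these genes (8 in the annotation) had a row.

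The 9 genes and the gene lists were chosen with earlier results of these data known. From each list, called genes and otherwise up to 4 genes with the highest CPM could be named. Protein sequences were not used here. Alternatives were DESeq2 1.42.0, its size factors, library totals, TMM without ribosomal and mitochondrial genes, no filter, a mean of at least 10 counts, an adjusted p under 0.05, a loess trend on length removed (span 0.4), known models alone, the same row rule for both groups, each library left out and a block on the column number. The scripts were tested on simulated counts.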

Additional observations from a re-analysis of the deposited data

How the results depend on the processing

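SELENOS kept its direction in all 17 alternatives. These reuse the counts by which it was chosen, so this describes the estimate and is no test of it. The stricter adjusted p threshold left every estimate as it was. Of the other 8 selenoproteins, SELENOK, SELENOW, SELENOT and GPX4 kept their direction. Estimates near 0 changed sign. SELENOM became 0.0077 with library totals and 0.035 with the length trend removed, and SELENOF -0.016 with the length trend removed. With each library left out, SELENOM ranged from -0.27 to 0.156, SELENOF from -0.022 to 0.254 and SELENOH from -0.26 to 0.011, each changing sign without the highest-total siControl library. GPX1 ranged from -0.042 to 0.106 and was below 0 without that library (-0.027) and without the lowest-total siDelta2-4 library. DERL1 ranged from -0.54 to 0.079 and was above 0 without the lowest-total siControl library. Of the estimates that kept their sign, SELENOK ranged from -0.31 (length trend removed) to -0.088 (library totals), GPX4 from -0.28 to -0.097 with each library left out, NCL from 0.18 to 0.49 and CALR from 0.019 (length trend removed) to 0.26. The SLC3A2 call was lost in 9 of 15 alternatives. The cause was not tested.

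The number of the 8 selenoproteins called, 0, became 1 with library totals and 1 with the length trend removed (SELENOW each time), and was 0 to 1 with each library left out. The number of their models called, 0, became 1 with library totals and 0 to 1 with each library left out. The count over all genes, 504, became 279 with DESeq2, 304 at an adjusted p under 0.05, 252 with known models alone and 299 with the replicate block, and 194 to 1041 with each library left out (194 without the middle-total siDelta2-4 library, 1041 without the lowest-total siControl library). DESeq2 gave an adjusted p to 1675 genes. The share of calls that were higher in siDelta2-4 was 54.0%, and 70.4% with library totals, 28.0% with DESeq2 and 43.0% with the length trend removed. Calls among Sec machinery genes went from 0 to 1 with DESeq2 and with known models alone (RPL30 both times) and were 0 to 1 with each library left out. Calls among thiol genes went from 2 to 1 with DESeq2 (which gave SLC3A2 no adjusted p), library totals, a mean of at least 10 counts, an adjusted p under 0.05 and the replicate block, and were 0 to 2 with each library left out. Calls among ER stress genes went from 1 to 0 with DESeq2, which gave HSPA5 no adjusted p. They were 2 with no filter and 1 to 2 with each library left out. Where there were 2, the second was HSP90B1, whose test is not quoted, so it is given as a count only.

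The column numbers did not pair the libraries (correlations of 0.039, -0.136 and -0.084 between same-numbered columns). The replicate block called 0 of the 8 selenoproteins tested, as without it. Among the 10 genes of the lists and neighbours that were refitted, it lost the SLC3A2 call and no other. Where leaving out a library left a group with fewer libraries, edgeR pooled the spread over groups. With 8 to 16 counts per siControl library, SELENOS and SELENOM were the members most limited by depth.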
